A study of Drosophila melanogaster with 6 samples.

Results

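Polycomb-group (PcG) genes and trithorax-group (trxG) genes encode chromatin proteins that act in opposite directions on the same developmental genes. PcG complexes keep genes silent by ubiquitinating and methylating histones and by compacting chromatin, trxG proteins keep genes active by histone methylation and nucleosome remodelling, and Enhancers of Trithorax and Polycomb (ETP) serve as cofactors of both. In wing imaginal discs, the larval epithelia that give rise to the adult wing and thorax, PcG silencing is known above all for holding homeotic genes in their proper domains. The set described here holds 39 such genes, named by their FlyBase symbols and found by identifier among the 17478 genes of the count table. All 39 symbols matched, with 10 genes on chromosome arm 3R, 9 each on 2R and 3L, 5 each on 2L and X, and 1 on chromosome 4. They fall into PRC1 (7 genes), PRC2 (8), PR-DUB (2), PhoRC (3), the demethylase of the dRAF complex (1), COMPASS complexes and other histone methyltransferases (6), the Brahma remodelling complex (6), ETP and DNA-binding cofactors (3), and other trxG remodellers and readers (3).

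RNA was sequenced from wing discs of larvae expressing a Cyclin G without its PEST domain (*da-Gal4*, *UAS-CycGΔP/+*, called *CycGΔP* discs) and of *da-Gal4/+* larvae (control discs), with 3 samples in each group. The *da-Gal4* driver, which both groups carry, is active throughout the larva, so neither the transgene nor Gal4 is restricted to the disc. All larvae were females of the third instar, each sample pooled 150 discs, and the 3 replicates of a genotype were dissected from separate crosses. The comparison bears on whether expression of the PcG and trxG genes themselves differs between discs with and without the transgene, since Cyclin G binds the ETP proteins Asx and Corto. The protocol writes the genotype as *da-Gal4/UAS-CycGΔP*, whereas the genotype field and design text place the driver and the transgene together over a wild-type chromosome.

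The total count per library was 21853360 to 28656578 in *CycGΔP* discs and 27821674 to 40059450 in control discs. *CycG* itself had 1022, 1012 and 900 CPM (counts scaled to a common library total after TMM normalization) in *CycGΔP* replicates 1, 2 and 3, against 723, 788 and 686 CPM in control replicates 1, 2 and 3. The groups did not overlap, and the log2 fold change of 0.42 had an edgeR adjusted p-value of 0.0909. All 7 wing disc marker genes that were matched were expressed, with summed levels of 1706 to 1853 CPM in *CycGΔP* discs and 1548 to 1831 CPM in control discs. Their log2 fold changes were all above 0, with a median of 0.13, and 0 were called. Groups did not overlap for 2 of the 7 (*ap* and *dpp*, 28.6%), against 22.0% of all tested genes. All 6 muscle markers were below the control range in *CycGΔP* discs, 1 of them (*Mhc*) with an adjusted p-value under 0.05, and their summed level was 46.2 to 61.2 CPM in *CycGΔP* discs and 104 to 248 CPM in control discs. The male-specific RNA *roX1* had 2.90 to 4.85 CPM in *CycGΔP* discs and 14.0 to 47.5 CPM in control discs (edgeR adjusted p = 0.0613), although the labels give females only. *roX2* was at 0 in all *CycGΔP* libraries and at 0.279 to 1.60 CPM in control discs. The other listed male marker, *msl-2*, overlapped between groups, at 33.8 to 37.4 CPM in *CycGΔP* discs and 35.3 to 43.4 CPM in control discs (log2 fold change −0.19, edgeR adjusted p = 0.41). Fat body markers summed to 4596, 7556 and 6782 CPM in *CycGΔP* replicates 1, 2 and 3, against 22238, 2167 and 717 CPM in control replicates 1, 2 and 3. In this sum control replicate 1 alone stood above every *CycGΔP* library and the other controls below them. For *Lsp1alpha* and *Lsp1gamma*, control replicate 2 (351 and 411 CPM) was above *CycGΔP* replicate 1 (284 and 354 CPM). Of the 6 fat body markers, 5 had log2 fold changes below 0 and 1 above, and 0 were called. Control replicate 1 was also the highest library for the muscle sum and for *roX1*. Without control replicate 1 none of the 39 genes was called, as with it, and only 78 of all tested genes were. With so few calls, this count does not show whether other cells entered the values. The part of these other cells in the values below was not tested, and in bulk samples fewer cells of a type and less RNA per cell cannot be told apart.

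None of the 39 genes differed between *CycGΔP* and control discs at an edgeR adjusted p-value under 0.05. All 39 passed the expression filter, with 373 to 32302 counts per gene and library. Over the 9408 genes tested, 134 passed that threshold (1.42%). At an unadjusted p-value under 0.05 there were 2 of the 39 genes, *Snr1* and *lolal*, against 1385 of all tested genes (14.7%). DESeq2 called 0 of the 39 genes and 5.44% of its tested genes, with 3 of the 39 (*Snr1*, *lolal* and *pho*) and 15.7% of its tested genes at an unadjusted p-value under 0.05. With limma voom it was 0 of the 39 and 1.29% of all genes, with 1 of the 39 and 14.4% of all genes at an unadjusted p-value under 0.05. The smallest adjusted p-value of any of the 39 genes was 0.33 with edgeR, and 0.19 over all alternative settings.

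The estimated differences were small. Log2 fold changes of the 39 genes ran from −0.18 for *Sce* (0.882-fold) to 0.48 for *trx* (1.39-fold), with 25 above 0 and 14 below, and their median was 0.04. Over all tested genes 4921 were above 0 and 4487 below, with a median of 0.01. For 33 of the 39 genes (84.6%) the 95% interval of the log2 fold change lay wholly within a 1.5-fold change in either direction, against 60.7% of all tested genes. The intervals that reached beyond 1.5-fold were those of *trx*, *kis*, *ash1*, *fs(1)h*, *dom* and *osa*, which have at least 7.62 kb of exon sequence each. *Jarid2*, *jing*, *trr* and *corto* also have more than 7.62 kb, and their intervals lay within 1.5-fold. The biological coefficient of variation of the 39 genes lay between 9.38 and 25.2%, with a median of 12.3%, against 14.8% over all tested genes. All tested genes include some with far fewer counts than any of the 39, such as *lab* with 7 to 14 counts per library. The comparisons of intervals and of variation were not matched for expression level. *CycGΔP* and control values did not overlap for 3 of the 39 genes (7.69%), against 22.0% of all tested genes. Of these 3, 2 were higher in *CycGΔP* discs (9.98% of all tested genes were) and 1 was lower (12.1% of all tested genes were).

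**Figure D1:**
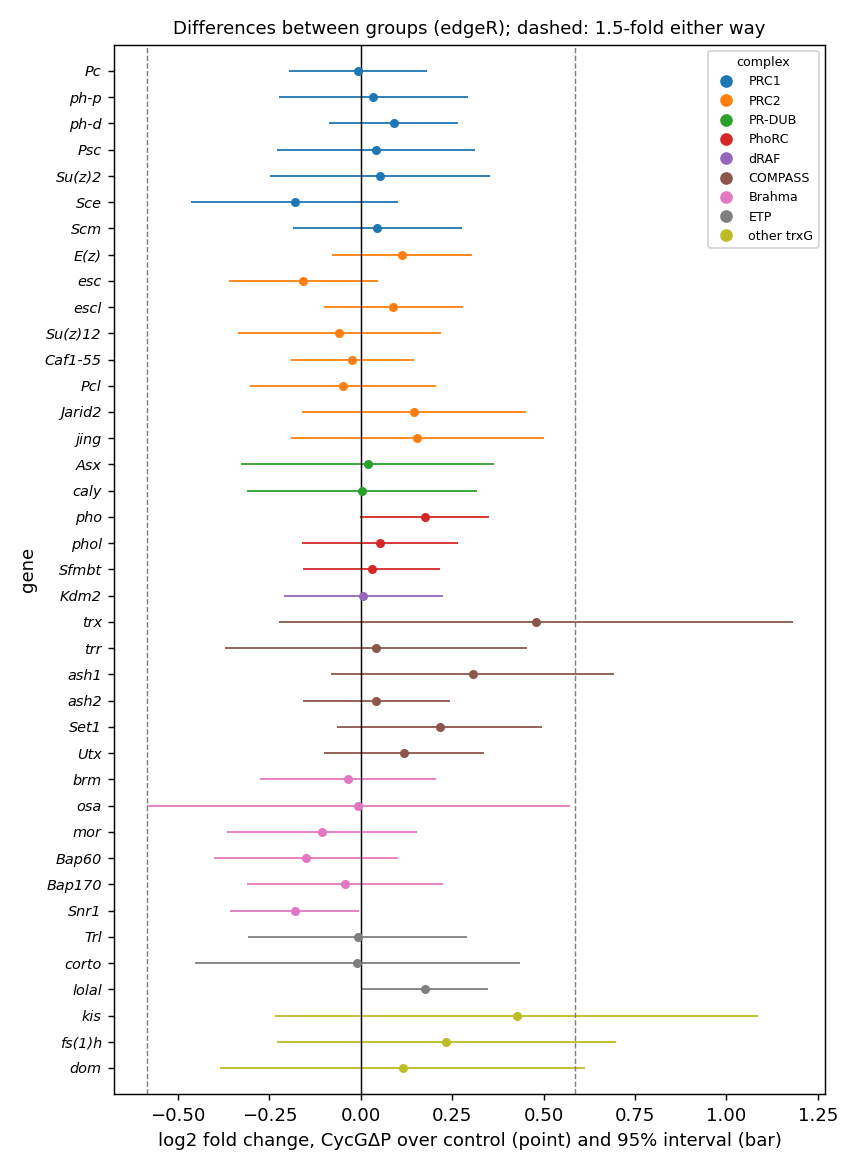
Log2 fold change of each of the 39 genes, *CycGΔP* over control (points; bars are 95% intervals from the edgeR fit with 3 libraries per group), coloured by complex, with dashed lines at a 1.5-fold change either way. The points lie between −0.18 (*Sce*) and 0.48 (*trx*), and 6 of the 39 bars cross a dashed line.

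The genes whose groups were separate were *Snr1*, *lolal* and *pho*. *Snr1* (FBgn0011715, plus strand of 3R from 5470926 to 5472754 in dm6) encodes a core subunit of the Brahma complex, and it had 128, 115 and 124 CPM in *CycGΔP* discs, against 135, 135 and 146 CPM in control discs. Every *CycGΔP* value lay under every control value, and the log2 fold change was −0.18 (95% interval −0.36 to −0.0040, edgeR adjusted p = 0.33). *lolal* (FBgn0022238, minus strand of 2R from 18154095 to 18158192) encodes a BTB-domain partner of the GAGA factor. Its level was 229, 247 and 247 CPM in *CycGΔP* discs, against 223, 202 and 214 CPM in control discs. The lowest *CycGΔP* library stood just above the highest control library, with a log2 fold change of 0.18 (0.0028 to 0.35, edgeR adjusted p = 0.333). *pho* (FBgn0002521, minus strand of chromosome 4 from 1172469 to 1181628) encodes a zinc-finger protein that binds Polycomb response elements. It had 148, 153 and 159 CPM in *CycGΔP* discs, against 145, 128 and 134 CPM in control discs, a log2 fold change of 0.18 (−0.0010 to 0.35, edgeR adjusted p = 0.34). The lowest *CycGΔP* value was again just above the highest control value. None of these 3 genes passed the threshold over all tested genes, and without *CycGΔP* replicate 2 none had an unadjusted p-value under 0.05.

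PRC1 carries the E3 ligase that ubiquitinates histone H2A and the reader of methylated histone H3. None of its 7 genes passed the test, 5 had log2 fold changes above 0 and 2 below, the median was 0.04, and no interval reached beyond −0.46 or 0.35. *Pc*, the chromodomain subunit that binds methylated H3, had 30.2, 27.1 and 31.3 CPM in *CycGΔP* discs, against 31.2, 28.5 and 29.5 CPM in control discs. The *CycGΔP* range enclosed the control values, with a log2 fold change of −0.0069 (95% interval −0.20 to 0.18). For *Sce*, the ubiquitin ligase, the values were 53.7, 42.8 and 45.1 CPM in *CycGΔP* discs, against 48.0, 59.7 and 52.8 CPM in control discs. *CycGΔP* replicate 1 sat among the controls and the other *CycGΔP* libraries under them, and the log2 fold change was −0.18 (−0.46 to 0.10, edgeR adjusted p = 0.514). *Psc*, a RING-finger partner of Sce, had 84.7, 75.0 and 68.6 CPM in *CycGΔP* discs, against 67.8, 82.9 and 71.1 CPM in control discs, with a log2 fold change of 0.04 (−0.23 to 0.31). Its neighbour and paralog *Su(z)2* ranged from 30.1 to 40.6 CPM in *CycGΔP* discs and from 30.4 to 36.1 CPM in control discs. The groups overlapped for both genes.

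The Polyhomeotic proteins polymerise through their SAM domains and hold PRC1 together on chromatin. *ph-p* had 127, 135 and 122 CPM in *CycGΔP* discs, against 113, 144 and 118 CPM in control discs (log2 fold change 0.03, −0.22 to 0.29). *ph-d* had 82.4, 89.3 and 85.4 CPM in *CycGΔP* discs, against 80.1, 85.4 and 75.9 CPM in control discs (0.09, −0.09 to 0.27). Control replicate 2 lay within or above the *CycGΔP* range for both. *Scm*, a SAM-domain protein that bridges PRC1 to other PcG complexes, had 75.6, 82.0 and 79.5 CPM in *CycGΔP* discs, against 67.8, 84.9 and 77.0 CPM in control discs, with a log2 fold change of 0.05 (−0.19 to 0.28). The control values enclosed all *CycGΔP* values.

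PRC2 methylates histone H3, and 4 of its 8 genes had log2 fold changes above 0 and 4 below, with a median of 0.03 and none past the test. *E(z)*, the methyltransferase, had 65.1, 57.5 and 62.7 CPM in *CycGΔP* discs, against 53.7, 60.8 and 56.7 CPM in control discs. *CycGΔP* replicates 1 and 3 were above all controls and replicate 2 was among them, and the log2 fold change was 0.11 (−0.08 to 0.30, edgeR adjusted p = 0.538). *esc* encodes the WD-repeat subunit that stimulates the enzyme, and it had 23.9, 20.2 and 22.9 CPM in *CycGΔP* discs, against 24.8, 26.1 and 23.8 CPM in control discs. Only *CycGΔP* replicate 1 reached the control range, with a log2 fold change of −0.16 (−0.36 to 0.05, edgeR adjusted p = 0.447). Its close relative *escl* ranged from 16.1 to 17.7 CPM in *CycGΔP* discs and from 15.7 to 16.8 CPM in control discs (log2 fold change 0.09).

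The other PRC2 genes also overlapped between groups. *Su(z)12*, a core subunit, ranged from 79.8 to 91.8 CPM in *CycGΔP* discs and from 79.7 to 104 CPM in control discs. *Caf1-55*, a histone-binding protein shared with many chromatin complexes, ranged from 314 to 340 CPM in *CycGΔP* discs and from 324 to 349 CPM in control discs. With a log2 fold change of −0.02 (−0.19 to 0.15) it was among the most tightly bounded of the 39 genes. The accessory subunit gene *Pcl* ranged from 112 to 122 CPM in *CycGΔP* discs and from 109 to 138 CPM in control discs. *Jarid2* and *jing* encode accessory subunits that guide PRC2, and both were highest in *CycGΔP* replicate 2. *Jarid2* had 161 to 221 CPM in *CycGΔP* discs and 158 to 178 CPM in control discs, and *jing* had 156 to 201 CPM in *CycGΔP* discs and 140 to 183 CPM in control discs. Their log2 fold changes were 0.15 each, and without *CycGΔP* replicate 2 they were 0.00073 for *Jarid2* and 0.03 for *jing*.

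PR-DUB removes ubiquitin from histone H2A. Its catalytic subunit gene *caly* had 40.1, 28.3 and 36.2 CPM in *CycGΔP* discs, against 32.3, 35.9 and 36.2 CPM in control discs. The *CycGΔP* libraries enclosed the controls, and the log2 fold change was 0.0042 (−0.31 to 0.32). In *caly*, 10.1% of exon bases overlap a gene on the other strand. *Asx*, which encodes its cofactor and a partner of Cyclin G, had 86.4, 99.1 and 75.9 CPM in *CycGΔP* discs, against 82.6, 101 and 74.4 CPM in control discs. The control range enclosed the *CycGΔP* range, with a log2 fold change of 0.02 (−0.33 to 0.36, edgeR adjusted p = 0.965). *Kdm2*, the histone demethylase of dRAF, ranged from 161 to 195 CPM in *CycGΔP* discs and from 165 to 184 CPM in control discs (0.0075, −0.21 to 0.23).

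PhoRC recruits PcG complexes to DNA. Besides *pho*, it includes *phol*, which encodes a related zinc-finger protein, and *Sfmbt*, which encodes their MBT-domain partner. *phol* ranged from 79.1 to 92.5 CPM in *CycGΔP* discs and from 76.9 to 86.4 CPM in control discs, and *Sfmbt* from 130 to 143 CPM in *CycGΔP* discs and from 125 to 142 CPM in control discs. Their log2 fold changes were 0.05 and 0.03, with overlapping groups. In *Sfmbt*, 18.4% of exon bases overlap genes on the other strand, and whether strand was used in the counting is not given in the sources used here.

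COMPASS complexes methylate histone H3 at active genes. All 6 genes of this group had log2 fold changes above 0, with a median of 0.17, but none passed the test, and the number above 0 was 5 of 6 in 6 of the 16 alternative settings. *trx* (FBgn0003862, minus strand of 3R from 14263358 to 14286903), the founding trxG methyltransferase, had 204, 422 and 217 CPM in *CycGΔP* discs, against 188, 216 and 202 CPM in control discs. *CycGΔP* replicate 2 stood far above every other library, while replicate 1 lay within the control range. The log2 fold change of 0.48 (−0.22 to 1.18, edgeR adjusted p = 0.491) became 0.06 (−0.15 to 0.27) without that library. *ash1*, a histone H3 methyltransferase that antagonises PRC2, had 74.7, 104 and 69.5 CPM in *CycGΔP* discs, against 62.2, 72.5 and 65.9 CPM in control discs. It was again highest in *CycGΔP* replicate 2, and its log2 fold change was 0.31 (−0.08 to 0.69, edgeR adjusted p = 0.434) with that library and 0.11 without it.

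*Set1* encodes the methyltransferase of the main COMPASS complex, and its level was 122, 147 and 115 CPM in *CycGΔP* discs, against 116, 116 and 98.4 CPM in control discs. The lowest *CycGΔP* library lay within the control range, with a log2 fold change of 0.22 (−0.06 to 0.50, edgeR adjusted p = 0.447). *Utx*, the demethylase that removes the PRC2 mark, had 101, 86.4 and 99.5 CPM in *CycGΔP* discs, against 94.7, 87.1 and 82.6 CPM in control discs (0.12, −0.10 to 0.34). Here *CycGΔP* replicate 2 was the low one of its group. *trr*, a methyltransferase that works with Utx, ranged from 79.6 to 108 CPM in *CycGΔP* discs and from 80.8 to 113 CPM in control discs. *ash2*, a core subunit, ranged from 76.8 to 90.4 CPM in *CycGΔP* discs and from 81.4 to 84.5 CPM in control discs. Both had log2 fold changes of 0.04.

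The Brahma complex slides and evicts nucleosomes, and all 6 of its genes had log2 fold changes below 0, with a median of −0.07. None passed the test, and the values below 0 numbered 3 to 6 over the 16 alternative settings, with a median of 0.0026 when control replicate 2 was left out. *Bap60*, a core subunit gene, had 277, 215 and 253 CPM in *CycGΔP* discs, against 263, 281 and 282 CPM in control discs. *CycGΔP* replicate 1 was within the control range and the other libraries of the group below it, with a log2 fold change of −0.15 (−0.40 to 0.10, edgeR adjusted p = 0.536). The ATPase gene *brm* ranged from 369 to 435 CPM in *CycGΔP* discs and from 371 to 445 CPM in control discs, and the scaffold gene *mor* from 357 to 384 CPM in *CycGΔP* discs and from 346 to 453 CPM in control discs. *osa* and *Bap170* mark the alternative forms of the complex. *osa* ranged from 270 to 428 CPM in *CycGΔP* discs and from 286 to 451 CPM in control discs, and *Bap170* from 139 to 171 CPM in *CycGΔP* discs and from 147 to 175 CPM in control discs. The spread of *osa* within each group was wide, so its log2 fold change of −0.0068 had an interval from −0.59 to 0.57.

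Of the cofactors, *corto* encodes a chromodomain ETP that binds Cyclin G, and it had 108, 152 and 99.0 CPM in *CycGΔP* discs, against 107, 139 and 115 CPM in control discs. The *CycGΔP* range enclosed the control range, and the log2 fold change was −0.0092 (−0.45 to 0.43). *Trl*, the gene of the GAGA factor, ranged from 24.3 to 29.9 CPM in *CycGΔP* discs and from 23.2 to 29.9 CPM in control discs. *Trl* shares 77.8% of its exon bases with *CG42507* and *Tsen34* on the same strand, and reads there could not be assigned to a single gene.

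The remaining trxG genes encode a chromodomain remodeller (*kis*), a bromodomain reader of acetylated histones (*fs(1)h*) and an ATPase that exchanges histone variants (*dom*). All of them were highest in *CycGΔP* replicate 2. *kis* (FBgn0266557, minus strand of 2L from 210735 to 250823) had 759, 1509 and 810 CPM in *CycGΔP* discs, against 697, 780 and 812 CPM in control discs. Except in *CycGΔP* replicate 2, its values overlapped between groups, and the log2 fold change was 0.43 (−0.23 to 1.09, edgeR adjusted p = 0.509) with that library and 0.04 without it. *fs(1)h* ranged from 456 to 767 CPM in *CycGΔP* discs and from 462 to 523 CPM in control discs, and *dom* from 607 to 919 CPM in *CycGΔP* discs and from 567 to 793 CPM in control discs. Their log2 fold changes were 0.23 and 0.11, and −0.01 and −0.11 without *CycGΔP* replicate 2.

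**Figure D2:**
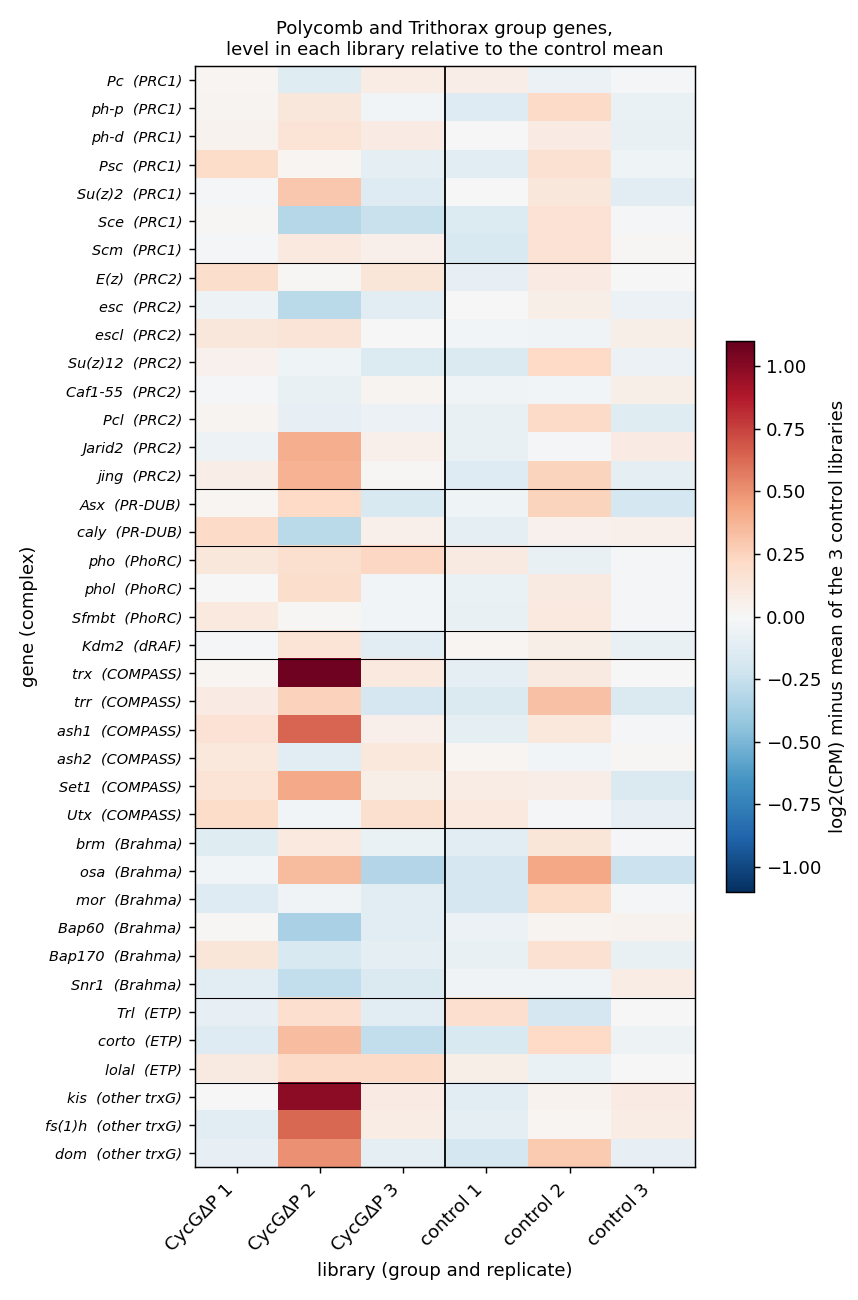
Level of each of the 39 genes (rows, grouped by complex) in each library (columns, *CycGΔP* to the left of the line and control to the right), as log2 CPM minus the mean of the 3 control libraries. The darkest cells are *trx* (1.07) and *kis* (0.99) in *CycGΔP* replicate 2.

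The deviations of single libraries from the gene means ran with exon length in 5 of the 6 libraries, in differing directions. Over the 39 genes the rank correlation with exon length was −0.54, 0.85 and −0.48 in *CycGΔP* replicates 1, 2 and 3, against −0.66, 0.09 and −0.64 in control replicates 1, 2 and 3. A deviation is measured from the mean of the 6 libraries, so a high library lowers the others. Over all 9237 tested genes with an exon length the rank correlations were closer to 0 except in control replicate 2, at 0.18, 0.05 and −0.12 in *CycGΔP* discs, against −0.22, 0.26 and −0.32 in control discs. *CycGΔP* replicate 2 gave the highest value for 15 of the 39 genes and the lowest for 9, while control replicate 1 gave the lowest for 14 and the highest for none. Classes of exon length were set after these values had been seen. For the 9 genes with at least 8 kb of exon, the median deviation from each gene's mean log2 level was −0.13, 0.35 and −0.09 in *CycGΔP* replicates 1, 2 and 3, against −0.20, 0.17 and −0.14 in control replicates 1, 2 and 3. Of these 9 genes, 7 were highest in *CycGΔP* replicate 2 and the other 2 (*osa* and *trr*) in control replicate 2. For the 12 genes under 3 kb it was 0.06, −0.13 and 0.05 in *CycGΔP* discs, against −0.0090, 0.01 and 0.02 in control discs, and 8 of the 12 were lowest in *CycGΔP* replicate 2. So long genes of the set were high and short genes of the set low in the same library.

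Over all tested genes, with those of the set included, a like deviation was seen for long genes and not for short ones. The 411 tested genes with at least 8 kb of exon had median deviations of −0.05, 0.38 and −0.08 in *CycGΔP* discs, against −0.15, 0.07 and −0.18 in control discs. The 6391 tested genes under 3 kb had −0.02, −0.02 and 0.02 in *CycGΔP* discs, against 0.03, −0.03 and 0.03 in control discs. For the 411 long genes the median log2 fold change was 0.18, against 0.15 for the 9 long genes of the set, and without *CycGΔP* replicate 2 these medians were 0.0071 and −0.01. Across the 39 genes, which share the same 6 libraries and are not independent replicates, the log2 fold change followed log2 exon length with Pearson's r of 0.60 and Spearman's rho of 0.50, and without *CycGΔP* replicate 2 r was −0.18 and rho −0.15. Without control replicate 2 they were 0.77 and 0.76. Over the 9237 genes rho was 0.10, or 0.09 without *CycGΔP* replicate 2 and 0.23 without control replicate 2 (9232 genes). Without *CycGΔP* replicate 2, 20 of the 39 genes had log2 fold changes above 0 and 19 below, the log2 fold change farthest from 0 was 0.22 in size, and 38 of the 39 intervals lay within 1.5-fold, the exception being *osa*. With a smooth trend on exon length taken out of each library, an alternative chosen after seeing the data, all 39 intervals lay within 1.5-fold, and 18 genes were above 0 and 21 below.

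**Figure D3:**
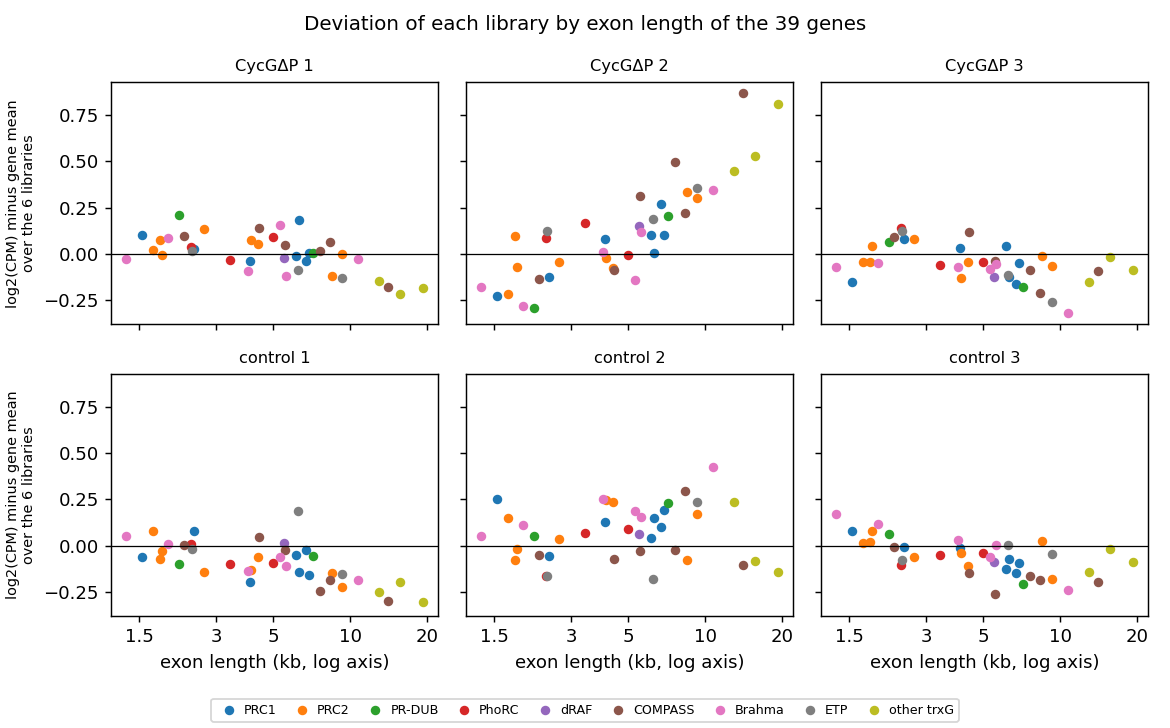
Deviation of each of the 39 genes from its own mean log2 CPM over the 6 libraries (vertical axis) against exon length in kb (log axis), one panel per library, *CycGΔP* in the upper row and control in the lower row, coloured by complex. In *CycGΔP* replicate 2 the points climb with length to 0.87 for *trx*, and the rank correlation there was 0.85 over the 39 genes.

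Levels were also compared between genes per kb of exon, which sets genes of different length on one scale. The 39 genes covered a wide range, with a median of 23.0 CPM per kb in *CycGΔP* discs and 21.4 CPM per kb in control discs. *Caf1-55* was highest, at 179 ± 7.03 CPM per kb in *CycGΔP* discs and 182 ± 7.58 in control discs (SD, n = 3 each), followed by *Bap60* at 128 ± 16.2 in *CycGΔP* discs and 142 ± 5.72 in control discs. *lolal* had 100.2 ± 4.37 CPM per kb in *CycGΔP* discs and 88.7 ± 4.44 in control discs, and *mor* had 92.4 ± 3.56 in *CycGΔP* discs and 99.5 ± 13.5 in control discs. *Snr1* had 91.7 ± 4.85 CPM per kb in *CycGΔP* discs and 104 ± 4.92 in control discs. The order of these next genes was *lolal*, *mor*, *Snr1* in *CycGΔP* discs and the reverse in control discs, and *mor* did not differ from either neighbour beyond their SDs in either group. The ATPase gene *brm* came next, with 70.8 ± 6.09 CPM per kb in *CycGΔP* discs and 72.5 ± 6.65 in control discs, so that 4 of the 6 highest genes encode Brahma subunits.

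PRC1 genes stood below these highest genes, as did the rest of the set, so a lower level was not particular to PRC1. Outside PRC1, *ash1* for example had 10.9 ± 2.44 CPM per kb in *CycGΔP* discs and 8.78 ± 0.688 in control discs. *Sce* had 30.6 ± 3.74 CPM per kb in *CycGΔP* discs and 34.7 ± 3.80 in control discs, whereas *Pc* had 12.01 ± 0.884 in *CycGΔP* discs and 12.07 ± 0.568 in control discs. *Psc* had 12.02 ± 1.29 CPM per kb in *CycGΔP* discs and 11.67 ± 1.25 in control discs, which did not differ from *Pc* beyond the SDs in either group. The lowest levels over all exons were those of *Su(z)2*, at 5.14 ± 0.812 CPM per kb in *CycGΔP* discs and 4.95 ± 0.421 in control discs, and of *Trl*, at 4.21 ± 0.503 in *CycGΔP* discs and 4.23 ± 0.537 in control discs. The place of *Trl* rests on the shared exons in its length. Over the 1.39 kb of exon that *Trl* shares with no gene on the same strand, a length chosen after seeing the data, the same counts gave 18.95 ± 2.26 CPM per kb in *CycGΔP* discs and 19.1 ± 2.42 in control discs. *Su(z)2* was then the lowest of the 39 genes, and likewise when the longest transcript was used, at 5.21 ± 0.823 CPM per kb in *CycGΔP* discs and 5.01 ± 0.427 in control discs.

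**Figure D4:**
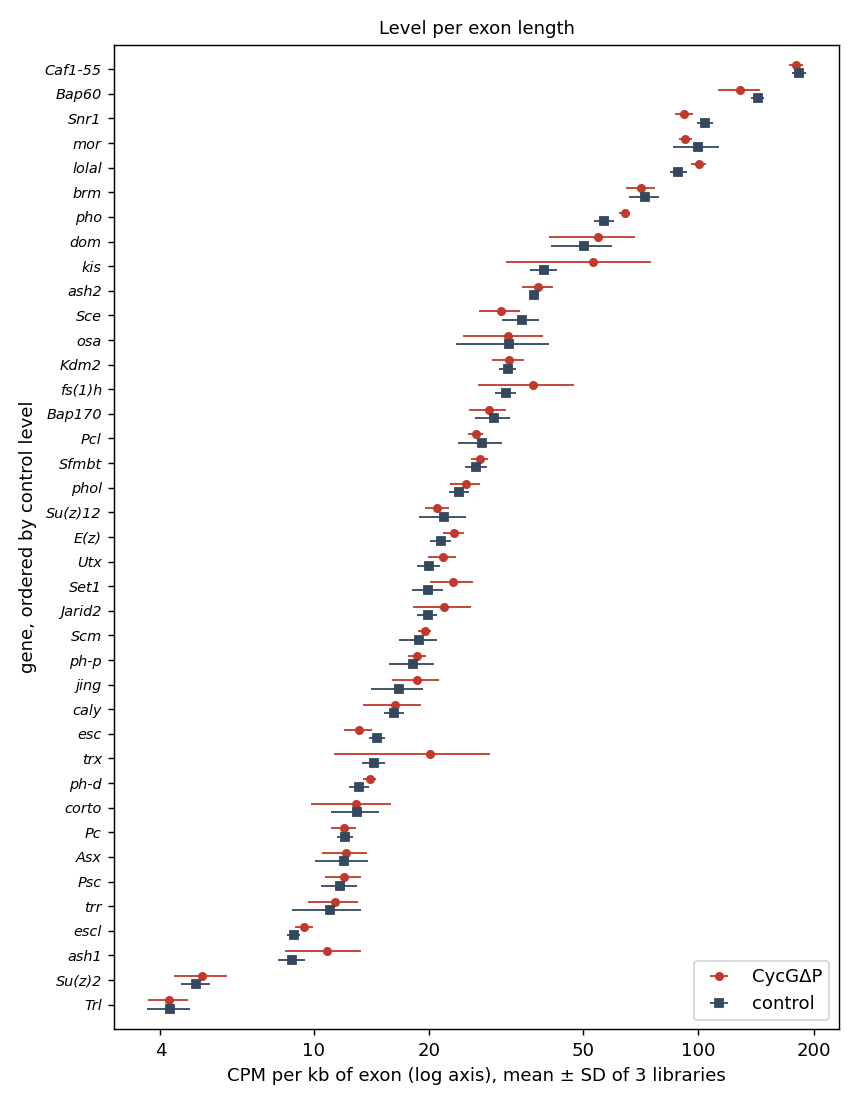
Level per kb of exon of the 39 genes on a log axis, mean ± SD of 3 libraries, with *CycGΔP* as circles above control as squares, ordered by the control level. *Caf1-55* is at the top (179 in *CycGΔP* discs and 182 in control discs) and *Trl*, with shared exons included in its length, at the bottom (4.21 in *CycGΔP* discs and 4.23 in control discs).

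Several of the genes are duplicates or act as opposed enzymes, so their ratio within a library was compared, a measure that does not depend on library scaling. *ph-d* (X, from 2115727 to 2123286) and *ph-p* (X, from 2126210 to 2138371) lie 2.92 kb apart on the minus strand and share near-identical stretches, so the split of reads between them is uncertain. Their log2 ratio (*ph-p* over *ph-d*) was 0.62, 0.60 and 0.52 in *CycGΔP* discs, against 0.49, 0.75 and 0.64 in control discs. *Psc* and *Su(z)2* lie 15.5 kb apart on 2R, and their log2 ratio was 1.37, 0.88 and 1.19 in *CycGΔP* discs, against 1.03, 1.199 and 1.22 in control discs. Both log2 ratios were above 0 in every library, and the groups overlapped, with differences of −0.05 (exact permutation p = 0.6) and −0.0052 (exact permutation p = 0.9).

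The largest difference of the 5 ratios was in *esc* over *escl*, which lie 162 kb apart on 2L. It was 0.45, 0.19 and 0.51 in *CycGΔP* discs, against 0.66, 0.73 and 0.50 in control discs, a difference of −0.25 with an exact two-sided permutation p of 0.2. *CycGΔP* replicate 3 was just above the lowest control. The log2 ratio of *Sce*, which adds ubiquitin to histone H2A, over *caly*, which removes it, was 0.42, 0.60 and 0.32 in *CycGΔP* discs, against 0.57, 0.74 and 0.55 in control discs, a difference of −0.17 (exact permutation p = 0.3). The ratio of *pho* over *phol* was 0.88, 0.73 and 1.00 in *CycGΔP* discs, against 0.91, 0.57 and 0.75 in control discs, a difference of 0.12 (exact permutation p = 0.5). None of the 5 ratios passed the test, with a smallest p adjusted over the 5 of 0.75, and 3 libraries against 3 cannot give an exact p below 0.1.

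**Figure D5:**
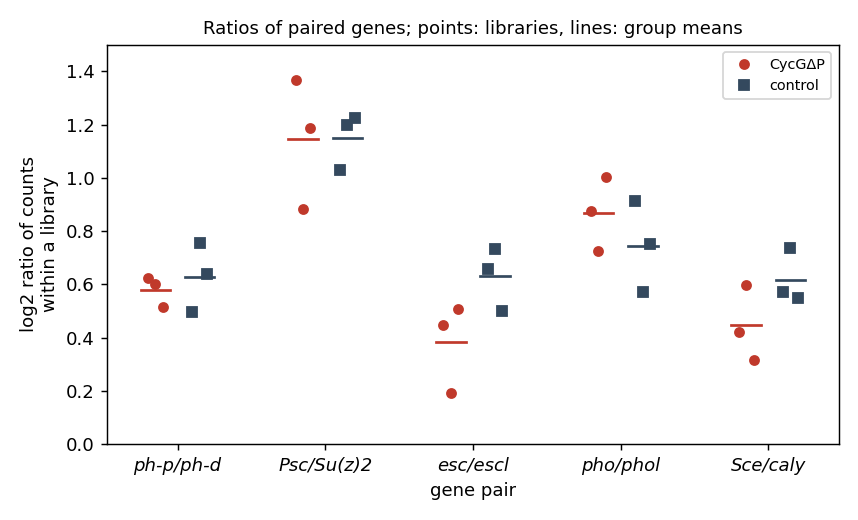
Log2 ratio of counts within each library for the 5 gene pairs, *CycGΔP* as circles to the left of control as squares, with lines at the group means. The groups overlap in every pair, and the means are farthest apart for *esc* over *escl* (0.38 in *CycGΔP* discs and 0.63 in control discs).

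Further PcG, trxG and ETP genes and partners outside the 39 were tested in the same fit. Of 34 listed names, 33 were matched and tested, 0 passed an edgeR adjusted p-value of 0.05, and DESeq2 and limma voom also called 0. Over all genes tested by each tool, the called shares were 1.42%, 5.44% and 1.29%. At an unadjusted p-value under 0.05 there were 2 of the 33, against 14.7% of all tested genes. Both were lower in *CycGΔP* discs and both encode COMPASS subunits. *Dpy-30L1* had 29.7, 27.6 and 27.4 CPM in *CycGΔP* discs, against 33.0, 33.4 and 35.1 CPM in control discs, with a log2 fold change of −0.26 (edgeR adjusted p = 0.13). *Cfp1*, which encodes the CpG-binding subunit of the Set1 complex, had 25.9, 21.4 and 20.6 CPM in *CycGΔP* discs, against 26.5, 29.8 and 26.5 CPM in control discs (−0.29, edgeR adjusted p = 0.275). In both genes every *CycGΔP* value lay under every control value. Groups did not overlap for these 2 of the 33 genes (6.06%), against 22.0% of all tested genes. Other listed COMPASS genes mostly had log2 fold changes above 0. These were *wds* (0.17), *Lpt* (0.13), *Mnn1* (0.10), *Wdr82* (0.10), *Hcf* (0.08) and *Rbbp5* (0.06), whereas *Ptip* was below 0 (−0.13). *Bap111*, which encodes an HMG-domain Brahma subunit, had 174, 120 and 122 CPM in *CycGΔP* discs, against 154, 254 and 178 CPM in control discs. Its groups overlapped, with a log2 fold change of −0.50 (edgeR adjusted p = 0.384), below that of every Brahma gene in the set. Of other Brahma genes in this list, *Bap55* (0.03) and *e(y)3* (0.07) were above 0 and *polybromo* (−0.03) was below. Over the 33 genes, 21 had log2 fold changes above 0 and 12 below, and the median was 0.07.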

How the data were processed

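The authors aligned single reads of 50 bp from polyA RNA, prepared with a strand-specific kit, to dm6 with TopHat2 2.0.10. They assigned unambiguous reads to Ensembl genes with summarizeOverlaps in Union mode and deposited whole-number counts, unnormalized. Use of strand in counting is not given in the sources used here, and some identifiers appear newer than the annotation named. A second deposited table, which the authors normalized by library size, was not used. Positions and exon lengths come from Ensembl's BDGP6 (dm6) annotation, which covered 17219 of 17478 identifiers. All 6 libraries were run together on 2 lanes, so no sequencing batch separates the groups.

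The test was edgeR's quasi-likelihood test, version 4.0.16 (R 4.3.3; TMM factors 0.963 to 1.03, expression filter by group, robust fit, no covariate), with Benjamini-Hochberg adjustment at 0.05 over all 9408 tested genes. Intervals are 95% intervals from the fit's standard error. DESeq2 1.42.0, limma 3.58.1, RLE and upper-quartile factors, other filters, left-out replicates and a replicate block were alternatives. Total counts of 21853360 to 40059450 gave at least 373 counts for every gene of the set in each library. Replicates of a group differed by more than sampling noise (chi-square of at least 40.3 per gene). Scripts were tested on simulated counts. Every gene of the set is named; values in each library are given for the 12 smallest p-values and for genes whose alleles the study crossed to the transgene, and of the other lists for the 3 smallest p-values. Genes and lists were chosen with earlier results of these data known.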

Additional observations from a re-analysis of the deposited data

How the results depend on the processing

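None of the 39 genes was called under any of the 16 alternative fits, nor at an adjusted p-value threshold of 0.01 or 0.1, and none of the further PcG and trxG genes or the Polycomb target genes was called under the 16 fits. The genes of the set with an interval within 1.5-fold numbered 30 to 39, and their median log2 fold change lay between −0.02 and 0.09. Of 624 gene values under the alternatives, 92 changed sign, and 16 of the 39 genes changed sign under none. Over all tested genes, the 134 calls became 560 with DESeq2, 11 to 78 when a single replicate was left out, 10 without both samples numbered 2 (chosen after seeing the data), 2 with a replicate block, and 2 with the block and the exon length trend removed (also chosen after seeing the data); the cause was not tested. Same-numbered samples did not deviate together (correlations −0.12, −0.29 and −0.15), so the numbers were not taken as pairs. With the replicate block 3 of the 39 genes had an unadjusted p-value under 0.05 and 36 intervals lay within 1.5-fold. The matching shares of all tested genes were not computed for the block, so these counts are not read as a result about the set. The lowest level per length, that of *Trl* in control discs, was 4.23 CPM per kb over all exons, and the lowest was that of *Su(z)2*, 5.01 CPM per kb, when the longest transcript was used, where *Trl* had 5.96 CPM per kb. With at least 373 counts per gene and library, 33 of the 39 intervals lay within 1.5-fold, and the data leave room for differences within each gene's interval.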

Other observations

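Genes that are classical targets of Polycomb silencing were looked at beside their regulators. Of 37 listed names, 36 were matched and 26 passed the expression filter. None of the 26 passed an edgeR adjusted p-value of 0.05, and DESeq2 and limma voom called 0. None had an unadjusted p-value under 0.05, against 14.7% of all tested genes. Their log2 fold changes were above 0 for 13 genes and below 0 for 13, with a median of −0.0049. The 10 genes that did not pass the filter (*pb*, *Dfd*, *eve*, *tin*, *bap*, *slou*, *prd*, *cad*, *zen* and *ftz*) had at most 0.191 CPM in *CycGΔP* discs and at most 0.607 CPM in control discs.

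The thoracic homeotic gene *Antp* had 80.1, 122 and 82.8 CPM in *CycGΔP* discs, against 70.7, 74.7 and 71.3 CPM in control discs, with a log2 fold change of 0.39 (edgeR adjusted p = 0.345). *hth*, the homeobox gene of the proximal disc, had 487, 845 and 535 CPM in *CycGΔP* discs, against 472, 496 and 450 CPM in control discs (0.40, edgeR adjusted p = 0.438). *Antp* groups did not overlap and *hth* groups did. Of the 26 tested targets, 2 (*Antp* and *upd3*, 7.69%) had groups without overlap, against 22.0% of all tested genes. Both *Antp* and *hth* were highest in *CycGΔP* replicate 2, the library in which long genes of the set were high. The other *CycGΔP* libraries of *Antp* (80.1 and 82.8 CPM) also lay above its highest control (74.7 CPM). For *hth*, *CycGΔP* replicate 1 (487 CPM) lay within the control range and replicate 3 (535 CPM) above it. The part of exon length in these values was not tested. *Doc3*, a T-box gene, had 32.9, 33.8 and 30.5 CPM in *CycGΔP* discs, against 33.7, 36.3 and 38.3 CPM in control discs (−0.16, edgeR adjusted p = 0.399). *Ubx*, the homeotic gene of the haltere, ranged from 10.9 to 20.3 CPM in *CycGΔP* discs and from 12.1 to 19.6 CPM in control discs. *Ubx* was chosen after its values were seen.

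Markers of other cells that a disc preparation can hold were measured too. For the counts below, edgeR called 1.42% of all tested genes. Haemocyte markers summed to 31.4 to 172 CPM in *CycGΔP* discs and 57.4 to 117 CPM in control discs, with 0 of 5 called. Neuronal markers summed to 36.4 to 67.3 CPM in *CycGΔP* discs and 37.1 to 52.7 CPM in control discs, with 0 of 4 called. Tracheal markers summed to 810 to 1036 CPM in *CycGΔP* discs and 813 to 887 CPM in control discs, with 0 of 3 called. Markers of adult muscle precursors, which belong to the disc, summed to 175 to 190 CPM in *CycGΔP* discs and 154 to 188 CPM in control discs, with 0 of 4 called. The part of these cells in the values of the 39 genes was not tested.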
